A study of Arabidopsis thaliana with 6 samples.

Results

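Glutathione transferases of the tau and phi classes were followed in whole Arabidopsis thaliana seedlings that had glutamate or ammonium nitrate as their only nitrogen supply. The members were the 28 tau genes GSTU1 to GSTU28 and the 13 phi genes GSTF2 to GSTF14, taken by their AGI codes, and all 41 were found among the 33602 genes of the deposited table. Columbia seedlings grew for 12 days on nitrogen-free Murashige and Skoog salts at 1/2 strength with 0.5% sucrose, to which 5 mM glutamate or 5 mM ammonium nitrate was added, and each group had 3 libraries. The nitrogen supplied was therefore 5 mM on glutamate and 10 mM on ammonium nitrate, and the form of nitrogen and its amount cannot be told apart. Both groups were the same ecotype with no mutation named in the labels, and the labels do not say that libraries came from separate cultures. A p-value here therefore weighs the difference between the groups only against the scatter of these libraries, and that scatter may be technical.

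Glutathione transferases attach the tripeptide glutathione to reactive or foreign molecules, and several also carry small ligands without changing them. The conjugates are pumped into the vacuole and taken apart there. The tau and phi classes are the large plant-specific branches of the family, best known from herbicide detoxification and from induction by pathogens, salicylic acid and oxidative stress. Some members have assigned roles in the synthesis of camalexin, glucosinolates and anthocyanins.

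Levels are given in RPKM, reads per kilobase of gene length and per unit of library size, as scaled between libraries by the authors. The libraries held 49520259 to 63424604 reads in genes, as recovered from the deposited values. A gene was tested when its mean over the 6 libraries was at least 1 RPKM, by limma's moderated test on log2(RPKM + 1), with Benjamini-Hochberg adjustment over all 20032 tested genes and a threshold of 0.05. Log2 fold changes are on the log2(RPKM + 1) scale, where the changes of scarce genes come out too small, and are given with their standard error. A 2-fold change or more means a log2 fold change of 1 or more, or of -1 or less, and other folds are ratios of mean RPKM. Of all tested genes, 71.8% passed in either direction, 35% as higher on glutamate and 36.8% as lower. The share of higher genes among all that passed was 48.7% with the authors' scaling, 58.5% with equal totals per library and 43.5% with equal medians of the tested genes. All 7 shoot markers and all 12 root markers chosen for a check of the labelled tissue had reads in every library. The shoot markers, genes of photosynthesis and photorespiration, summed to 14249.6 to 16078 RPKM on glutamate and to 30153 to 31940 RPKM on ammonium nitrate, with 6 of the 7 lower and 1 not passing. The root markers summed to 2215 to 2421 RPKM on glutamate and to 3043 to 3757 RPKM on ammonium nitrate, with 8 higher, 3 lower and 1 not passing; their sum was mostly PYK10, which fell. Fewer cells of a type and less RNA per cell cannot be told apart in such bulk libraries, and the part of organ proportions in the results below was not tested.

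Regions upstream of members that changed strongly are shown first, since the family is known for promoters that answer to stress. Each run is the 300 bases before the annotated start of the gene, written 5′ to 3′ on the strand of the gene, from the TAIR10.1 assembly, whose nuclear chromosomes are those of TAIR10, with the start taken from its RefSeq annotation. The members are 4 of the 5 with the largest absolute log2 fold changes, and GSTU20, the member with the largest fall, added after its values were seen. Capitals mark every TGACG, the core bound by TGA factors, every TTGAC, the core of the W box bound by WRKY factors, and every CACGTG, the G box, each on either strand; TGACG and TTGAC can overlap where a T precedes the first.
GSTU3 (chr2:12629641-12629940, minus strand): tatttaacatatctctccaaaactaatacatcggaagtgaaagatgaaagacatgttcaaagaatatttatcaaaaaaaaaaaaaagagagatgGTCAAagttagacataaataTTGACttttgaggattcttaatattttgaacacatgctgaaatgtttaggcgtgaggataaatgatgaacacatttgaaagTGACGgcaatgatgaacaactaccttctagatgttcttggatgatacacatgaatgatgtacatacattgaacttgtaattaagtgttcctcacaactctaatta
GSTU4 (chr2:12627892-12628191, minus strand): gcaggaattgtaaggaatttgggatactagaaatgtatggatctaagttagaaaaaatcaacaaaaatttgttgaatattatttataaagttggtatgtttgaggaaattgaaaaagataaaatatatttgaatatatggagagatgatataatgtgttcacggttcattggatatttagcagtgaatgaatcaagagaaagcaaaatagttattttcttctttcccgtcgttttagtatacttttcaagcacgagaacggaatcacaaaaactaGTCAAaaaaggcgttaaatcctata
GSTU11 (chr1:26338819-26339118, minus strand): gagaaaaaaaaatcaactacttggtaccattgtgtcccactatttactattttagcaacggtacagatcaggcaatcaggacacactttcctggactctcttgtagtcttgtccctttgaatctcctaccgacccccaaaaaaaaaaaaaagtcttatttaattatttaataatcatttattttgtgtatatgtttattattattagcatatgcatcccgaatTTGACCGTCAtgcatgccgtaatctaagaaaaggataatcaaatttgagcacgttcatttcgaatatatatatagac
GSTU21 (chr1:29483010-29483309, minus strand): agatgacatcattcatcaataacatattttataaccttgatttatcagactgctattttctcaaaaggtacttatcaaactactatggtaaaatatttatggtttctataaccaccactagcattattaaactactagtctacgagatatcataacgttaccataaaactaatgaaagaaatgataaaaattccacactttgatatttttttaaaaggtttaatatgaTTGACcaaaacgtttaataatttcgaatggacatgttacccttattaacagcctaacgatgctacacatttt
GSTU20 (chr1:29485390-29485689, minus strand): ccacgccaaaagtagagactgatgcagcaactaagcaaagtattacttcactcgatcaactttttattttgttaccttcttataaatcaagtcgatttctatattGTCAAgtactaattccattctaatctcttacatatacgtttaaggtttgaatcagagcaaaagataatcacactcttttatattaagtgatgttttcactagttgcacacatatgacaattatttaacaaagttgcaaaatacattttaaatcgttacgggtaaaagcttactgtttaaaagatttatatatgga

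None of these windows overlapped an annotated neighbouring gene. GSTU3 held 1 TGACG and 2 TTGAC, and GSTU11 held 1 of each, side by side. GSTU4, GSTU21 and GSTU20 each held 1 TTGAC and no TGACG, and none of these 5 windows held CACGTG. Over the windows of 40 members, 17 (42.5%) held TGACG, against 21.3% of the 27443 windows of protein-coding genes taken in the same way. TTGAC stood in 25 of the 40 (62.5%), against 50.4% of all windows, and CACGTG in 2 (5%), against 7.09%. TGACG stood in 13 of 28 tau windows and in 4 of 12 phi windows. Of the 18 windows of members at least 2-fold higher on glutamate 10 held it, of the 10 that rose less 5 did, and of the 7 that fell 1 did. For TTGAC the counts were 14 of 18, 5 of 10 and 5 of 7. Of the 4 windows of members that did not pass, 1 held TGACG and 1 held TTGAC. Matches are given as a description of these letters only. The deposited gene length of 29 of the 41 members differed by more than 0.1 kb from that of every transcript in the RefSeq annotation, so the authors' gene models may begin elsewhere.

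Glutathione transferases of both classes were mostly higher on glutamate. Of the 27 tau members tested, 18 rose, 5 fell and 4 did not pass, and of the 13 phi members 11 rose and 2 fell. Among all tested genes 35% rose and 36.8% fell. The median log2 fold change was 0.98 over the tau members and 0.57 over the phi members, beside -0.02 over all tested genes. At least 2-fold higher were 13 tau and 6 phi members, where 9.52% of all tested genes were, and at least 2-fold lower were 2 tau and 2 phi members, where 5.54% were. The libraries of the 2 groups were fully apart for 33 of the 40 tested members, where this held for 76.1% of all tested genes. The remaining member, GSTU15, lay below the filter on level. Among the tested members, GSTU11, GSTU21, GSTF5 and GSTF12 had a mean under 1 RPKM on ammonium nitrate and reached the filter only through the glutamate libraries. Without them and GSTU15, 16 of 25 tau members rose and 5 fell, and 9 of 11 phi members rose and 2 fell. At least 2-fold higher were then 11 tau and 4 phi members, and the medians were 0.90 for tau and 0.48 for phi. GSTU3 was still counted there, with an ammonium nitrate mean of 1.10 RPKM. Its replicate 1 was at 2.28 RPKM and its replicates 2 and 3 at 0.629 and 0.387 RPKM.

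**Figure D1:**
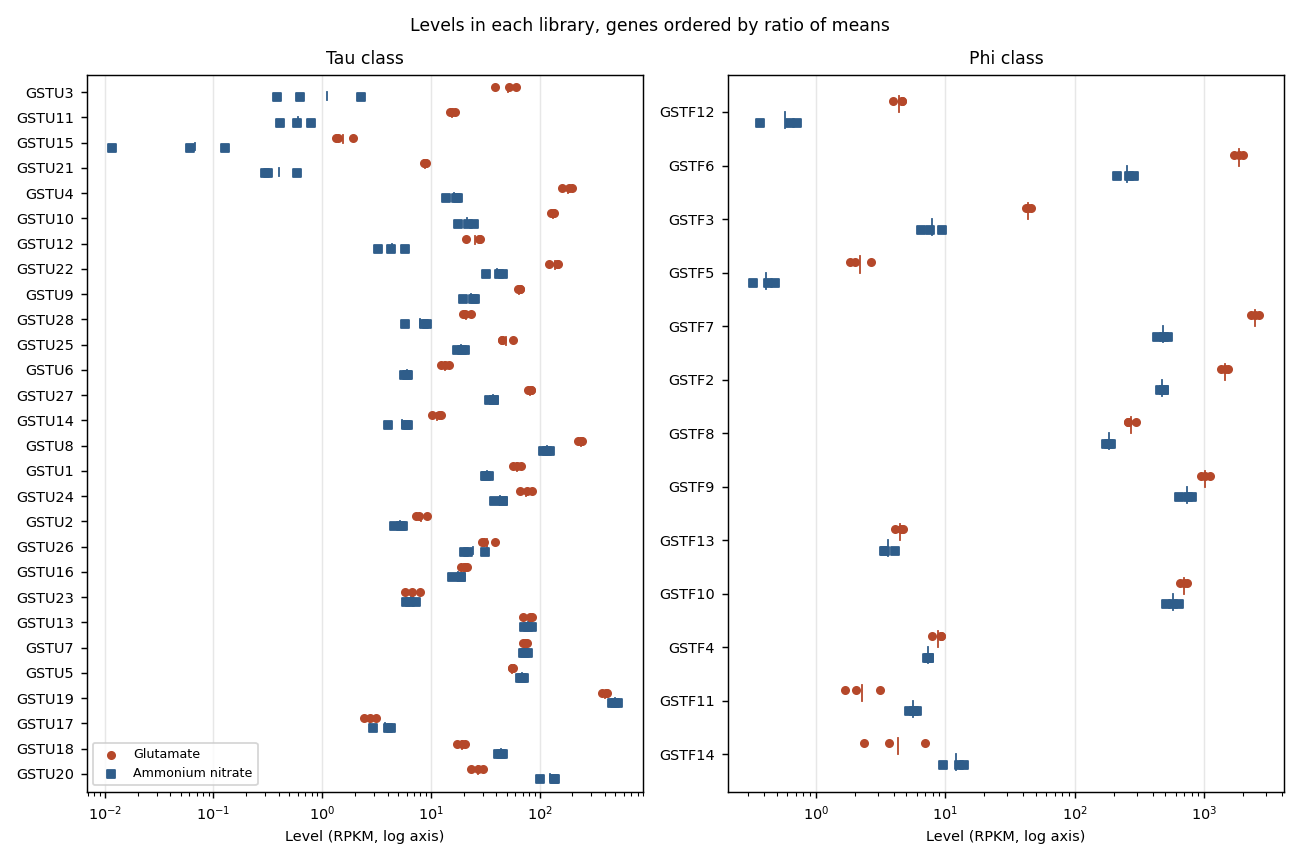
RPKM of each member in each library on a log axis, with glutamate as circles above and ammonium nitrate as squares below on each line, ordered by the ratio of means and with short lines at the means. The circles lie to the right of the squares in most rows of both classes, and all to the left for GSTU20, GSTU18, GSTU19, GSTU5, GSTF14 and GSTF11; GSTU15 had 0 reads in ammonium nitrate replicate 3, which the deposited table lists at the value of 0.5 read.

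The phi class was the more abundant class, and its total differed more between the groups. Summed over its 13 members it reached 8376, 7820.2 and 7253 RPKM on glutamate, against 2919.6, 2453 and 2832 RPKM on ammonium nitrate. The 28 tau members summed to 1964, 1950.4 and 1787 RPKM on glutamate, against 1408, 1244 and 1303 RPKM on ammonium nitrate. Every glutamate library lay above every ammonium nitrate library in both sums, and the means differed 2.86-fold for phi and 1.44-fold for tau. The phi sum was 4.26, 4.01 and 4.06 times the tau sum on glutamate, and 2.07, 1.97 and 2.17 times on ammonium nitrate. Phi genes took 0.824% ± 0.0561 of all reads in genes on glutamate and 0.272% ± 0.0246 on ammonium nitrate (SD, n = 3 each), and tau genes 0.183% ± 0.00967 on glutamate and 0.120% ± 0.00773 on ammonium nitrate. The phi sum rested on few genes: GSTF2, GSTF6 and GSTF7 made up 73.6% to 73.8% of it in the glutamate libraries. These 3 genes were 3.04-fold, 7.29-fold and 5.12-fold higher on glutamate. By member, the median log2 fold change was larger in the tau class, 0.98 against 0.57 in the phi class. These sums are given as a description, with no test over the members. The same libraries were often the low or the high ones of their group: glutamate replicate 3 was the lowest of its group for 26 of the 41 members and replicate 1 the highest for 20, while ammonium nitrate replicate 2 was the lowest of its group for 21 and replicate 1 the highest for 24. The coefficient of variation between libraries had a median of 8.2% on glutamate and 9.81% on ammonium nitrate over the 32 members with a mean of at least 5 RPKM on ammonium nitrate.

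The shares of abundant members differed between the groups in each class, and the leading member changed in the phi class only. GSTF7 was the most abundant phi gene in all 3 glutamate libraries and GSTF9 in all 3 ammonium nitrate libraries. GSTF7 made up 31.6% ± 0.150 on glutamate and 17.6% ± 0.750 on ammonium nitrate of the phi sum (SD, n = 3 each). GSTF9 made up 13.03% ± 0.141 on glutamate and 26.7% ± 0.944 on ammonium nitrate. In the tau class GSTU19 led in all 6 libraries, but its share of the class was 21.1% ± 0.250 on glutamate and 37.4% ± 0.385 on ammonium nitrate. GSTU4 made up 9.56% ± 0.588 on glutamate and 1.22% ± 0.112 on ammonium nitrate, and GSTU20 1.42% ± 0.190 on glutamate and 9.51% ± 1.29 on ammonium nitrate. GSTU4 was the third most abundant tau gene on glutamate, and GSTU20 the second on ammonium nitrate.

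**Figure D2:**
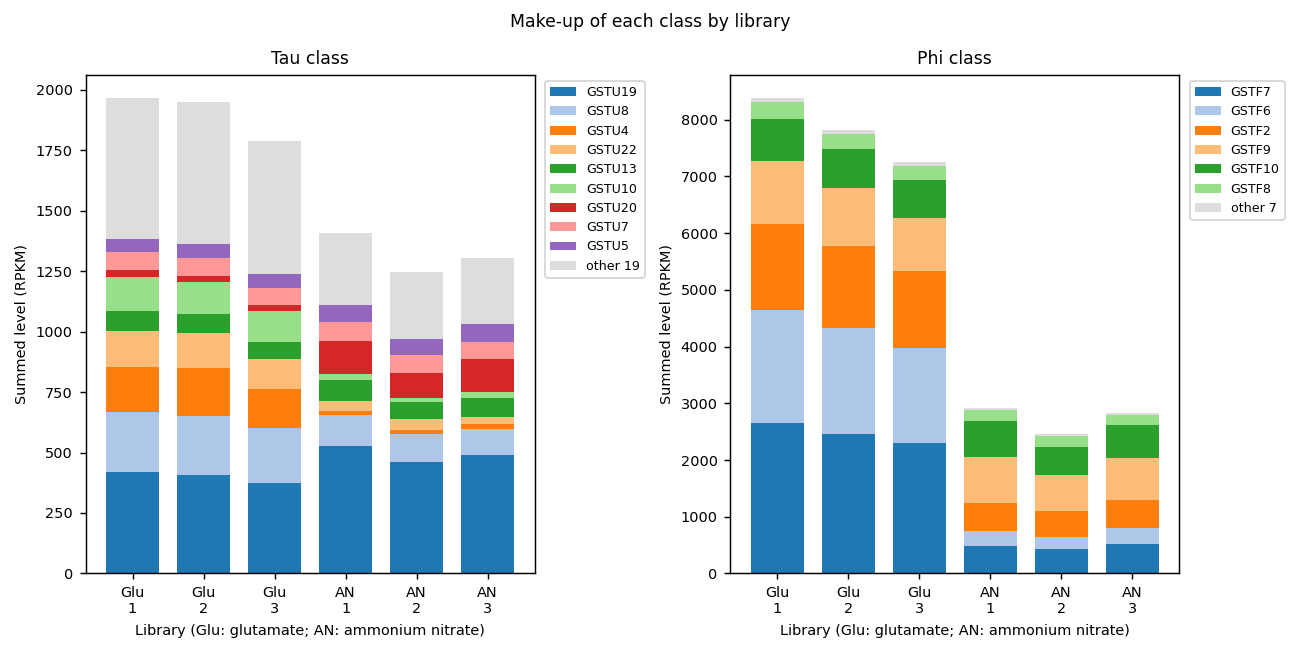
Summed RPKM of the tau members (left) and phi members (right) in each library, stacked by the most abundant members, with the others pooled in grey. GSTF6 and GSTF7 fill more of the phi bars on glutamate, and GSTU20 is a broader band of the tau bars on ammonium nitrate, 1.42% of the class on glutamate and 9.51% on ammonium nitrate.

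Among the phi members, the close pair GSTF6 and GSTF7 rose, as did the pair GSTF2 and GSTF3. GSTF6 (AT1G02930), which has a role in camalexin synthesis through conjugation of an indole intermediate, was at 1994, 1867 and 1683 RPKM on glutamate, against 264, 210.4 and 286 RPKM on ammonium nitrate. GSTF7 (AT1G02920), its neighbour and close relative, was at 2650.2, 2456 and 2298 RPKM on glutamate, against 493, 433 and 520.2 RPKM on ammonium nitrate. In both genes each glutamate library was several times above each ammonium nitrate library. GSTF6 was 7.29-fold higher (log2 fold change 2.87 ± 0.12, adjusted p = 4.0e-07) and GSTF7 5.12-fold higher (log2 fold change 2.36 ± 0.09, adjusted p = 2.9e-07). GSTF2 (AT4G02520), which binds camalexin and other small ligands, was at 1525, 1450.2 and 1354 RPKM on glutamate, against 485, 451 and 488 RPKM on ammonium nitrate. GSTF3 (AT2G02930), its near copy, was at 41.6, 46.0 and 43.4 RPKM on glutamate, against 6.48, 7.61 and 9.45 RPKM on ammonium nitrate. The groups were apart in both, and GSTF3 was the far less abundant of the pair in every library. GSTF2 was 3.04-fold higher (log2 fold change 1.60 ± 0.07, adjusted p = 5.0e-07) and GSTF3 5.57-fold higher (log2 fold change 2.35 ± 0.11, adjusted p = 7.9e-07).

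How alike these pairs are is shown by the first 120 coding bases, from TAIR10.1, with the bases that differ within a pair in capitals. Across the whole coding sequence GSTF6 and GSTF7 differed at 36 of 630 aligned bases (94.3% identity) and GSTF2 and GSTF3 at 35 of 639 (94.5%).
GSTF6 (chr1:662072-662191, minus strand): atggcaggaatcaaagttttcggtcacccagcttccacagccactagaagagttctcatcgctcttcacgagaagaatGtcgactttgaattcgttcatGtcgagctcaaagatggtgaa
GSTF7 (chr1:659586-659705, minus strand): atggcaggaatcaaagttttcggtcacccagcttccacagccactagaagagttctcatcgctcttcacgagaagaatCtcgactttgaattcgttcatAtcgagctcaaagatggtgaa
GSTF2 (chr4:1111412-1111531, minus strand): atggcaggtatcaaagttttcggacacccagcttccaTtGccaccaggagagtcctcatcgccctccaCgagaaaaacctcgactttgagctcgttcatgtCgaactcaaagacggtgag
GSTF3 (chr2:851987-852106, minus strand): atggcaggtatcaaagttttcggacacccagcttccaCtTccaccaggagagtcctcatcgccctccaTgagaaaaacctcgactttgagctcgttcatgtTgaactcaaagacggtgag

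The first window held 2 differences and the second 4, and the longest identical coding stretch was 116 bases for GSTF6 and GSTF7 and 74 bases for GSTF2 and GSTF3. Reads within such stretches could come from either gene of a pair, so the split between the partners is less certain than the rise of the pair. The deposited table gave GSTF6 and GSTF7 shares of multiply mapped reads of 6.8e-05 and 8.0e-05, and GSTF2 and GSTF3 of 4.4e-05 and 4.6e-05. The partners nevertheless kept levels far apart in 1 of the pairs, since GSTF2 stood 33.0-fold above GSTF3 on glutamate and 60.5-fold on ammonium nitrate.

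The other phi members with large levels rose less. GSTF9 (AT2G30860), linked to glucosinolate synthesis and redox balance, was at 1105, 1015 and 937 RPKM on glutamate, against 810.5, 636 and 749 RPKM on ammonium nitrate, a 1.39-fold difference (log2 fold change 0.48 ± 0.10, adjusted p = 0.0032). Its neighbour GSTF10 (AT2G30870) was at 734, 702 and 655 RPKM on glutamate, against 637, 504 and 576 RPKM on ammonium nitrate, a 1.22-fold difference (log2 fold change 0.29 ± 0.09, adjusted p = 0.022). The groups did not overlap in either gene, though they lay close together. The call of GSTF10 was lost without glutamate replicate 1 (adjusted p = 0.069) or 2 (adjusted p = 0.0501) and without ammonium nitrate replicate 2 (adjusted p = 0.0531) or 3 (adjusted p = 0.0508). GSTF8 (AT2G47730), a widely used marker of early stress responses, was at 297, 258 and 259 RPKM on glutamate, against 192, 184 and 172 RPKM on ammonium nitrate, a 1.49-fold difference (log2 fold change 0.57 ± 0.07, adjusted p = 1.4e-04). Its groups were apart. GSTF4 and GSTF13 were at low levels, averaging 8.83 ± 0.800 RPKM on glutamate and 7.39 ± 0.130 RPKM on ammonium nitrate for GSTF4 and 4.43 ± 0.334 RPKM on glutamate and 3.61 ± 0.420 RPKM on ammonium nitrate for GSTF13 (SD, n = 3 each). Both passed as higher (adjusted p = 0.022 and 0.041), and the GSTF13 libraries overlapped. By limma's test, the adjusted p without glutamate replicate 1 or 2 was 0.0767 and 0.0775 for GSTF4 and 0.106 and 0.122 for GSTF13, and without ammonium nitrate replicate 1 it was 0.0579 for GSTF4. Without ammonium nitrate replicate 2 or 3 it was 0.112 for GSTF13 in both cases.

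Of the 4 remaining phi members, which are scarce, 2 rose and 2 fell. GSTF12 (AT5G17220), also called TT19 and needed for anthocyanin to accumulate in the vacuole, was at 4.64, 3.91 and 4.60 RPKM on glutamate, against 0.716, 0.367 and 0.634 RPKM on ammonium nitrate. GSTF5 (AT1G02940) was at 2.02, 2.68 and 1.82 RPKM on glutamate, against 0.486, 0.424 and 0.326 RPKM on ammonium nitrate. The groups were apart in both, with 7.66-fold (log2 fold change 1.78 ± 0.11, adjusted p = 3.2e-06) and 5.27-fold (log2 fold change 1.16 ± 0.12, adjusted p = 5.3e-05) higher means. Both genes reached the filter only through the glutamate libraries, so that their direction was fixed by the filter. GSTF11 (AT3G03190), assigned to the conjugation step of aliphatic glucosinolate synthesis, was at 3.11, 1.67 and 2.03 RPKM on glutamate, against 5.70, 5.20 and 6.03 RPKM on ammonium nitrate. GSTF14 (AT1G49860) was at 6.90, 3.69 and 2.35 RPKM on glutamate, against 13.9, 9.65 and 12.6 RPKM on ammonium nitrate. Every glutamate library lay below every ammonium nitrate library in both, and the glutamate libraries of GSTF14 spread widely around their mean. GSTF11 was 2.49-fold lower on glutamate (log2 fold change -1.04 ± 0.15, adjusted p = 3.4e-04) and GSTF14 2.80-fold lower (log2 fold change -1.38 ± 0.28, adjusted p = 0.0024). Without glutamate replicate 2 the log2 fold change of GSTF11 was -0.91.

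Among the tau members, GSTU3 and GSTU4, neighbours on chromosome 2, had the largest log2 fold changes on the log2(RPKM + 1) scale, while by ratio of means GSTU11, GSTU15 and GSTU21 lay above GSTU4. GSTU3 (AT2G29470) was at 52.9, 60.3 and 39.2 RPKM on glutamate, against 2.28, 0.629 and 0.387 RPKM on ammonium nitrate. Its ammonium nitrate libraries were unequal, replicate 1 being the highest, and the ratio of means was 46.2, or 99.995 without that library (log2 fold change 4.71 ± 0.30, adjusted p = 3.4e-06). GSTU4 (AT2G29460) was at 189, 197 and 159.9 RPKM on glutamate, against 17.8, 13.7 and 17.0 RPKM on ammonium nitrate, 11.2-fold higher (log2 fold change 3.42 ± 0.11, adjusted p = 1.3e-07). The groups were far apart in both genes. GSTU11 (AT1G69930) was at 15.5, 16.7 and 15.0 RPKM on glutamate, against 0.589, 0.413 and 0.796 RPKM on ammonium nitrate (log2 fold change 3.40 ± 0.10, adjusted p = 8.4e-08). Its neighbour GSTU12 (AT1G69920) was at 28.2, 27.6 and 21.1 RPKM on glutamate, against 5.75, 3.25 and 4.26 RPKM on ammonium nitrate (log2 fold change 2.31 ± 0.17, adjusted p = 7.3e-06). GSTU11 was near the bottom of the class on ammonium nitrate, with 30, 20 and 41 reads there, and the ratios of means were 26.3 for GSTU11 and 5.80 for GSTU12. The direction of GSTU11 was fixed by the filter, which it reached only through the glutamate libraries.

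Further tau members that were scarce or moderate on ammonium nitrate were several times more abundant on glutamate. GSTU21 (AT1G78360) was at 8.97, 8.88 and 8.68 RPKM on glutamate, against 0.318, 0.300 and 0.586 RPKM on ammonium nitrate, 22.0-fold higher (log2 fold change 2.82 ± 0.10, adjusted p = 1.7e-07). It reached the filter only through the glutamate libraries, which fixed its direction. GSTU10 (AT1G74590) was at 137, 133 and 127 RPKM on glutamate, against 24.8, 17.9 and 22.0 RPKM on ammonium nitrate, 6.12-fold higher (log2 fold change 2.57 ± 0.10, adjusted p = 3.7e-07). GSTU22 (AT1G78340) was at 147, 145 and 123 RPKM on glutamate, against 42.8, 45.9 and 32.5 RPKM on ammonium nitrate, 3.42-fold higher (log2 fold change 1.76 ± 0.13, adjusted p = 5.7e-06). None of these genes had overlapping groups, and GSTU10 and GSTU22 were among the 5 most abundant tau genes on glutamate. GSTU15 (AT1G59670), which lay below the filter, was at 1.35, 1.39 and 1.90 RPKM on glutamate, against 0.129, 0.0610 and 0.0116 RPKM on ammonium nitrate. Its ammonium nitrate libraries held 5, 2 and 0 reads and its glutamate libraries 71, 62 and 108, the ratio of means was 23.0, or 42.6 without ammonium nitrate replicate 1, and it passed when no filter was used (adjusted p = 0.00047). A count of 0 reads in replicate 3 allowed up to 0.0697 RPKM, taken as 3 reads and covering counting error only.

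Another group of tau members rose less steeply. Their means on ammonium nitrate ran from 5.16 RPKM for GSTU2 to 117 RPKM for GSTU8. That range also held the steeper GSTU10 and GSTU22, at 21.6 and 40.4 RPKM. GSTU8 (AT3G09270), the second most abundant tau gene on glutamate, was at 246, 242 and 228 RPKM on glutamate, against 126, 118 and 108 RPKM on ammonium nitrate, 2.03-fold higher (log2 fold change 1.02 ± 0.07, adjusted p = 3.3e-06). GSTU9 (AT5G62480) was at 66.0, 63.7 and 66.5 RPKM on glutamate, against 25.7, 24.4 and 19.7 RPKM on ammonium nitrate, 2.81-fold higher (log2 fold change 1.46 ± 0.09, adjusted p = 2.8e-06). GSTU27 (AT3G43800) was at 78.2, 83.8 and 84.0 RPKM on glutamate, against 38.3, 38.3 and 34.4 RPKM on ammonium nitrate, 2.22-fold higher (log2 fold change 1.13 ± 0.06, adjusted p = 1.2e-06). In each the lowest glutamate library was above the highest ammonium nitrate library. GSTU25 (AT1G17180), which can conjugate the explosive trinitrotoluene, was at 57.4, 44.9 and 44.7 RPKM on glutamate, against 20.4, 17.5 and 19.4 RPKM on ammonium nitrate, 2.56-fold higher (log2 fold change 1.31 ± 0.10, adjusted p = 9.8e-06). GSTU28 (AT1G53680) was at 19.8, 20.5 and 23.5 RPKM on glutamate, against 8.74, 9.24 and 5.76 RPKM on ammonium nitrate, 2.68-fold higher (log2 fold change 1.34 ± 0.15, adjusted p = 7.9e-05). GSTU6 (AT2G29440) was at 13.5, 12.5 and 14.6 RPKM on glutamate, against 6.21, 6.06 and 5.67 RPKM on ammonium nitrate, 2.26-fold higher (log2 fold change 1.06 ± 0.07, adjusted p = 4.1e-06). The groups were again apart. GSTU1, GSTU2, GSTU14, GSTU24 and GSTU26 rose by less than 2-fold on the log2(RPKM + 1) scale, with log2 fold changes of 0.90, 0.56, 0.98, 0.77 and 0.44. GSTU1 averaged 62.1 ± 5.07 RPKM on glutamate and 32.7 ± 1.53 RPKM on ammonium nitrate, and GSTU24, another enzyme that can conjugate trinitrotoluene, 75.4 ± 9.46 RPKM on glutamate and 43.6 ± 4.56 RPKM on ammonium nitrate. GSTU14 averaged 11.5 ± 1.09 RPKM on glutamate and 5.39 ± 1.19 RPKM on ammonium nitrate, and GSTU2 8.09 ± 1.06 RPKM on glutamate and 5.16 ± 0.480 RPKM on ammonium nitrate. GSTU26, at 29.7, 30.8 and 38.9 RPKM on glutamate, against 31.2, 22.0 and 20.2 RPKM on ammonium nitrate, had overlapping groups, and its adjusted p of 0.038 became 0.0508 without glutamate replicate 2, 0.125 without glutamate replicate 3, 0.109 without ammonium nitrate replicate 2 and 0.124 without ammonium nitrate replicate 3.

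The tau genes that fell included the most abundant member of the class. GSTU20 (AT1G78370), which binds the jasmonate-conjugating enzyme FIN219 and is assigned to aliphatic glucosinolate synthesis, was at 30.5, 23.4 and 26.9 RPKM on glutamate, against 136, 101 and 139.5 RPKM on ammonium nitrate, 4.66-fold lower on glutamate (log2 fold change -2.17 ± 0.13, adjusted p = 2.8e-06). GSTU18 (AT1G10360) was at 19.5, 17.5 and 20.5 RPKM on glutamate, against 41.6, 44.5 and 45.7 RPKM on ammonium nitrate, 2.29-fold lower (log2 fold change -1.16 ± 0.07, adjusted p = 2.0e-06). GSTU19 (AT1G78380), one of the major glutathione transferases of the plant, was at 419.7, 408 and 374 RPKM on glutamate, against 528, 459.6 and 491 RPKM on ammonium nitrate, 1.23-fold lower (log2 fold change -0.30 ± 0.07, adjusted p = 0.0058). These 3 genes had groups that did not overlap, with a wide gap for GSTU20 and GSTU18 and a narrow one for GSTU19. GSTU5 averaged 56.4 ± 0.701 RPKM on glutamate and 68.9 ± 2.89 RPKM on ammonium nitrate and fell as well (log2 fold change -0.28 ± 0.05, adjusted p = 7.3e-04). GSTU17 (AT1G10370), also called ERD9 and tied to light and drought responses, was at 3.12, 2.40 and 2.74 RPKM on glutamate, against 4.30, 2.93 and 4.02 RPKM on ammonium nitrate (log2 fold change -0.33 ± 0.13, adjusted p = 0.046). Its groups overlapped, and its adjusted p was 0.136 and 0.0957 without glutamate replicate 2 or 3, and 0.144 and 0.125 without ammonium nitrate replicate 1 or 3. GSTU17 and GSTU18 overlap at their ends in the RefSeq annotation, so reads from that end could be counted for either. GSTU13 (AT1G27130), which takes part in indole glucosinolate breakdown in defence, was at 86.1, 81.0 and 71.1 RPKM on glutamate, against 85.3, 72.0 and 78.1 RPKM on ammonium nitrate and did not pass (adjusted p = 0.88). GSTU7, GSTU16 and GSTU23 did not pass either, with ratios of means of 0.995, 1.14 and 1.04, and the libraries of the groups overlapped in all 4 genes.

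**Figure D3:**
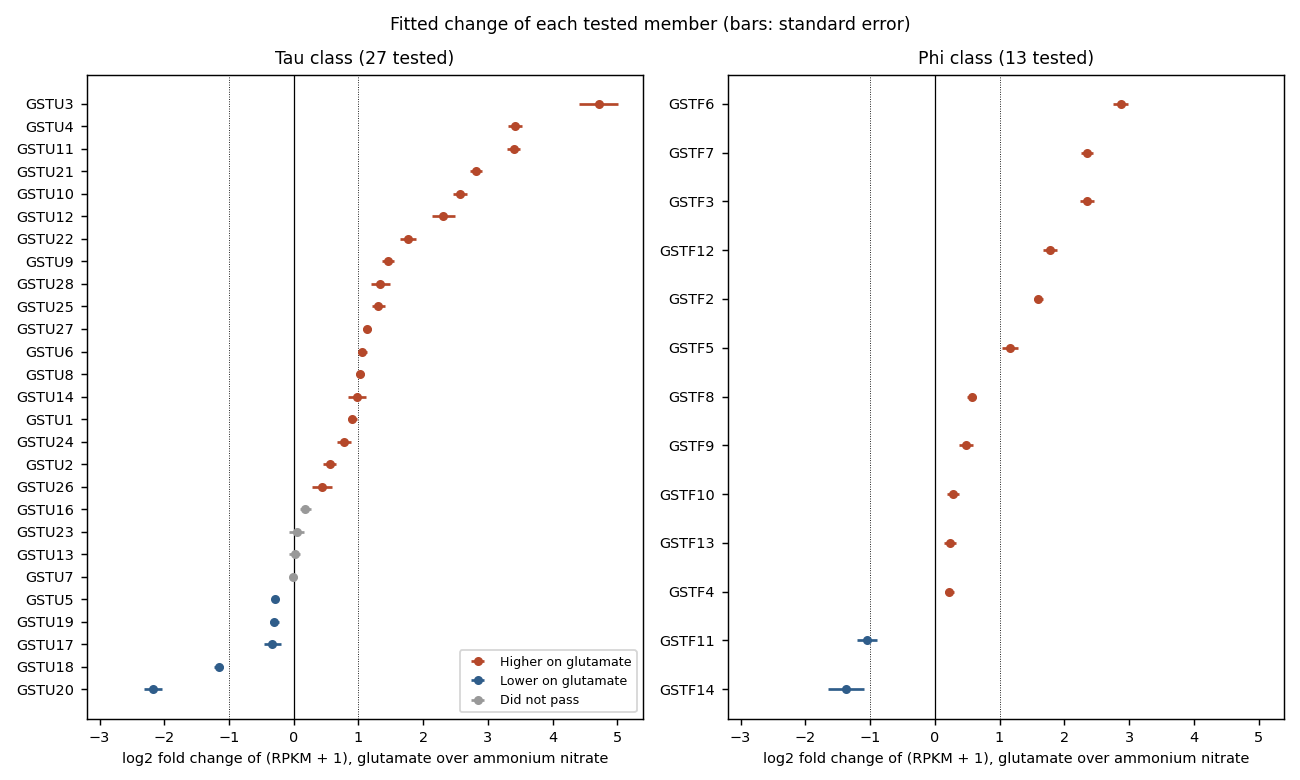
Log2 fold change of (RPKM + 1), glutamate over ammonium nitrate, of each tested member with its standard error, tau left and phi right; dotted lines mark a 2-fold change in either direction. The changes run from -2.17 for GSTU20 to 4.71 for GSTU3 in the tau class and from -1.38 for GSTF14 to 2.87 for GSTF6 in the phi class.

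Many members lie side by side in the genome, and neighbours did not always move together. With members no more than 20 kb apart taken as 1 group, 29 of the 41 fell into 9 tandem groups and 12 stood alone. The largest group, GSTU7 to GSTU1 on chromosome 2 (TAIR10.1, 12617936 to 12632538), held 5 members that rose, 1 that fell and 1 that did not pass, with log2 fold changes of -0.28 for GSTU5 to 4.71 for GSTU3. The group GSTU23 to GSTU19 on chromosome 1 (29467412 to 29488007) held 2 that rose, 2 that fell and 1 that did not pass, and there GSTU21, at 2.82, lay next to GSTU20, at -2.17. These were the 2 groups with members in both directions. In the group GSTF7 to GSTF4 (chromosome 1, 658578 to 666471) all 4 rose, and in GSTU24 to GSTU26 (chromosome 1, 5869543 to 5876620) all 3 did. GSTU11 and GSTU12 both rose, GSTF9 and GSTF10 both rose, and GSTU17 and GSTU18 both fell. Beside these counts, 35% of all tested genes rose and 36.8% fell, while 18 of 27 tau and 11 of 13 phi members rose. GSTU11, GSTU21 and GSTF5 reached the filter only through the glutamate libraries, so that they could pass only as higher. Whether neighbours moved together more often than other members was not tested. Coding identity and change are set side by side for some of the genes nearest in sequence. GSTU1 and GSTU2, the closest tau pair at 85.5% identity, had log2 fold changes of 0.90 and 0.56, whereas GSTU1 and GSTU4, at 83.9%, had 0.90 and 3.42. GSTU5 and GSTU6, at 83.4%, had -0.28 and 1.06. GSTU13 and GSTU14, at 82.2%, had 0.02 and 0.98, and GSTU17 and GSTU18, at 81.6%, had -0.33 and -1.16. In the phi class 11 of 13 members rose. GSTF2 and GSTF3, at 94.5%, had 1.60 and 2.35, and GSTF6 and GSTF7, at 94.3%, had 2.87 and 2.36. GSTF9 and GSTF10, at 77.6%, had 0.48 and 0.29. GSTF11 and GSTF12, at 75.3%, moved apart, with -1.04 and 1.78, and GSTF12 reached the filter only through the glutamate libraries.

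**Figure D4:**
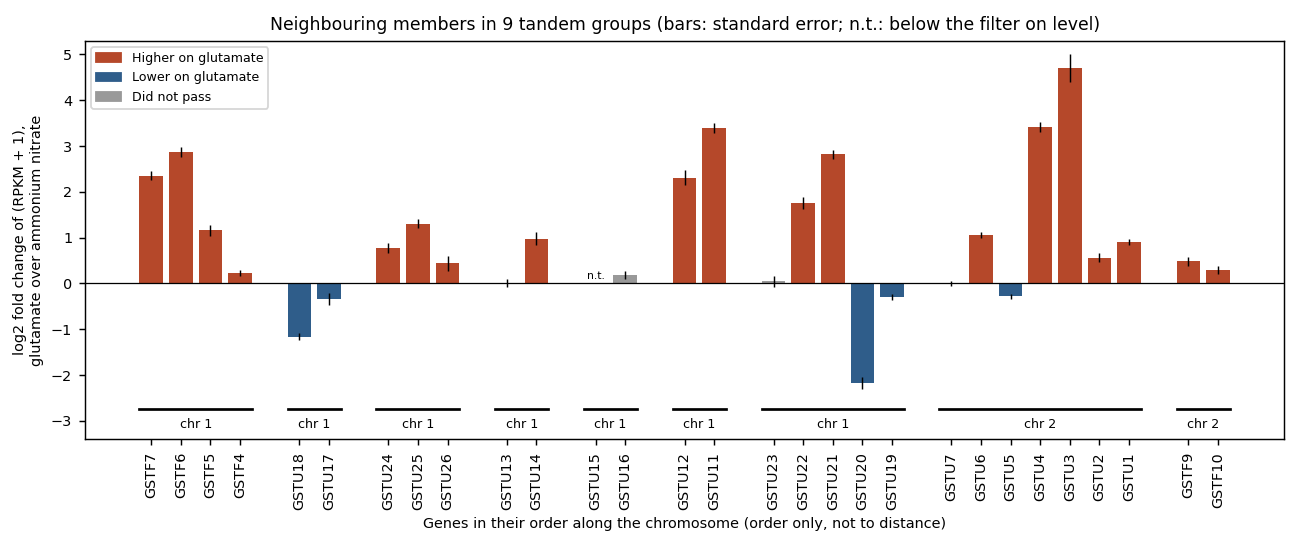
Log2 fold change of (RPKM + 1), glutamate over ammonium nitrate, with standard errors, of the 29 members in the 9 tandem groups, in their order along the chromosome and not to distance. The groups GSTU23 to GSTU19 and GSTU7 to GSTU1 hold bars in both directions; GSTU15 lay below the filter and was not tested.

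The genes around the transferases in the handling of glutathione changed less uniformly. Of 12 genes of the other glutathione transferase classes, 4 rose, 3 fell and 5 had an adjusted p above the threshold, and the median was -0.00487 on the log2 scale. Among all tested genes 35% rose and 36.8% fell. GSTL1 (AT5G02780) of the lambda class averaged 33.2 ± 2.33 RPKM on glutamate and 9.45 ± 1.03 RPKM on ammonium nitrate (SD, n = 3 each), with a log2 fold change of 1.71. GSTZ1 (AT2G02390), a zeta enzyme of tyrosine breakdown, also rose, 1.62-fold. GSTL2 (AT3G55040) and the dehydroascorbate reductases DHAR3 (AT5G16710) and DHAR1 (AT1G19570) fell, their log2 fold changes being -0.72, -0.67 and -0.31. Of 13 tested genes of glutathione metabolism and conjugate transport, 7 rose and 3 fell, and the median log2 fold change was 0.35. In either direction 76.9% of them passed, close to the 71.8% of all tested genes. GGCT2;1 (AT5G26220), which breaks glutathione down in the cytosol, averaged 9.71 ± 0.296 RPKM on glutamate and 1.56 ± 0.299 RPKM on ammonium nitrate. GGT4 (AT4G29210), which opens the breakdown of conjugates in the vacuole, averaged 31.4 ± 1.14 RPKM on glutamate and 13.9 ± 0.274 RPKM on ammonium nitrate, and phytochelatin synthase PCS1 (AT5G44070) 50.0 ± 1.41 RPKM on glutamate and 20.8 ± 1.07 RPKM on ammonium nitrate. The vacuolar conjugate pumps ABCC1 and ABCC2 rose 1.64-fold and 1.29-fold, both named after their values were seen. The genes that fell were GSH2 (AT5G27380) of glutathione synthesis, the plastid and mitochondrial glutathione reductase GR2 (AT3G54660) and GGCT2;2 (AT4G31290), with log2 fold changes of -0.34, -0.65 and -0.70.

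Genes of detoxification and of the TGA factors that act on such genes were mostly higher, 17 of 21 having risen and 2 fallen, and their median was 0.62 on the log2 scale. Beside this, 35% of all tested genes rose and 36.8% fell. The nitrilase gene NIT2 (AT3G44300) averaged 195 ± 3.13 RPKM on glutamate and 33.6 ± 0.464 RPKM on ammonium nitrate (log2 fold change 2.50 ± 0.04, adjusted p = 1.2e-08). The transporter gene ABCB4 (AT2G47000) was 3.64-fold higher and the transcription factor gene NAC102 (AT5G63790) 2.01-fold higher. DTX4 (AT2G04070), of a detoxification efflux carrier, averaged 5.34 ± 0.324 RPKM on glutamate and 0.199 ± 0.0539 RPKM on ammonium nitrate and reached the filter only through glutamate. The exceptions were CYP81D11 (AT3G28740), which fell to 5.95 ± 0.341 RPKM on glutamate, against 17.3 ± 1.43 RPKM on ammonium nitrate, and DTX1 (AT2G04040), with overlapping groups and an adjusted p of 0.044. The call of DTX1 was lost in 7 of the 14 alternatives of the processing, among them those without glutamate replicate 1 or 3 and without ammonium nitrate replicate 1 or 3.

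Some members have partners in specialised metabolism, and these partners are given beside them. Beside GSTF6 and GSTF2, all 5 camalexin genes rose, where 35% of all tested genes did, and the median was 2.66 on the log2 scale. PAD3 (AT3G26830), which makes the final steps, averaged 117 ± 15.5 RPKM on glutamate and 9.47 ± 2.05 RPKM on ammonium nitrate, and CYP79B2 (AT4G39950), at the entry to the pathway, 203 ± 35.3 RPKM on glutamate and 44.7 ± 6.30 RPKM on ammonium nitrate. CYP71A13 (AT2G30770) averaged 19.1 ± 5.60 RPKM on glutamate and 0.274 ± 0.169 RPKM on ammonium nitrate and CYP71A12 (AT2G30750), its close copy, 418 ± 55.3 RPKM on glutamate and 65.6 ± 12.6 RPKM on ammonium nitrate, and the deposited table gave both a share of multiply mapped reads of 0; CYP71A13 reached the filter only through glutamate. Beside GSTU20 and GSTF11, 7 of 8 aliphatic glucosinolate genes fell and 1 rose, where 36.8% of all tested genes fell. The median was -1.26 on the log2 scale. The chain-elongation gene MAM1 (AT5G23010) was at 18.0, 17.7 and 14.9 RPKM on glutamate, against 69.2, 64.7 and 65.4 RPKM on ammonium nitrate. The regulator gene MYB28 (AT5G61420) averaged 13.04 ± 0.812 RPKM on glutamate and 42.9 ± 5.97 RPKM on ammonium nitrate, CYP79F1 (AT1G16410) 2.61 ± 0.156 RPKM on glutamate and 9.73 ± 1.19 RPKM on ammonium nitrate and UGT74C1 (AT2G31790) 13.01 ± 0.730 RPKM on glutamate and 34.2 ± 1.84 RPKM on ammonium nitrate. The exception was SUR1 (AT2G20610), a lyase that indole glucosinolate synthesis also uses, which rose 1.76-fold. Beside GSTF12, 2 of 8 late anthocyanin genes reached the filter. Like GSTF12 itself, both did so only through the glutamate libraries, so that their direction was fixed by the filter. PAP2 (AT1G66390), a regulator, averaged 27.1 ± 3.56 RPKM on glutamate and 0.266 ± 0.0648 RPKM on ammonium nitrate, and DFR (AT5G42800) 4.00 ± 0.413 RPKM on glutamate and 0.689 ± 0.384 RPKM on ammonium nitrate. Without the filter 6 of the 8 passed as higher, where 7319 of all 33602 genes did. These 33602 include every gene below the filter, unlike the 20032 tested genes of which 35% rose. TT8 and 5MAT, named after their values were seen, did not pass.

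**Figure D5:**
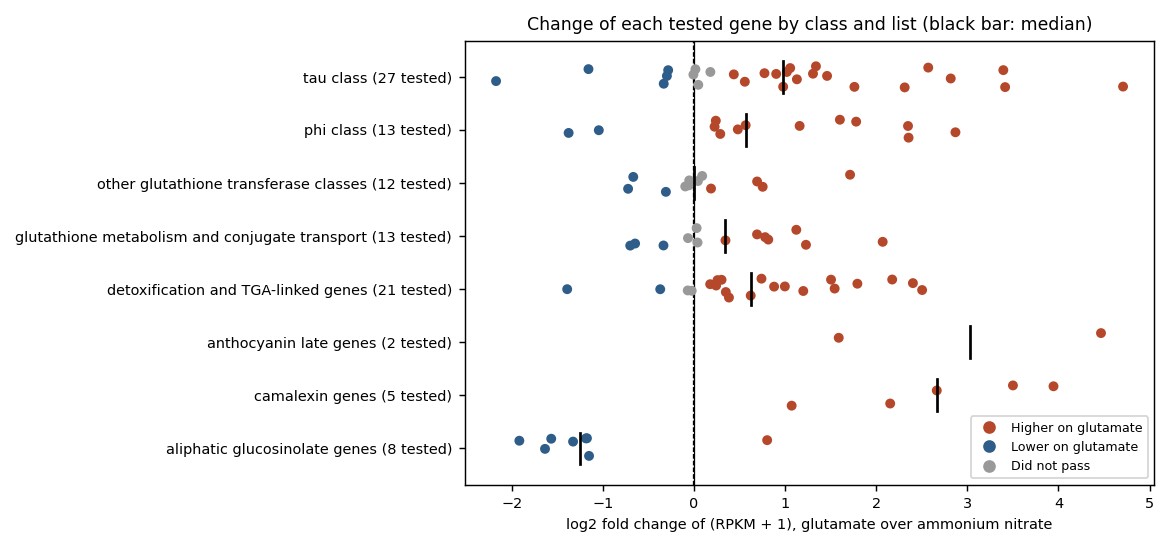
Log2 fold change of (RPKM + 1), glutamate over ammonium nitrate, of each tested gene of the 2 classes and of 6 lists, with a black bar at each median and a dashed line at the median of all tested genes. The tau and phi points lie mostly right of 0, the camalexin points all do, and 7 of the 8 aliphatic glucosinolate points lie left of 0.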

How the data were processed

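RNA was sequenced from 6 libraries of whole seedlings, 3 per nitrogen source. The values are RPKM per gene and library, normalised between libraries by the authors by TMM, as the deposited table is named; per the submitters' processing notes SAMtools and the TAIR10 build were used, while the sources used here do not give the aligner or counter. Gene length is deposited too, and so is, as a fraction, the largest share of multiply mapped reads per gene. RPKM times length moved in equal steps within a library, which gave each library's reads in genes (49520259 to 63424604); 0.5 read had been added to each gene, and 1 read in a gene of 1 kb was worth 0.0152 to 0.0211 RPKM. Libraries of a group differed beyond sampling noise (chi-square per degree of freedom 10.3 to 15.3).

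Testing was of genes averaging 1 RPKM or more, by limma 3.58.1 (moderated test with a mean trend, R 4.3.3) on log2(RPKM + 1), with Benjamini-Hochberg adjustment and both groups in 1 fit; the code was tested on simulated data. Alternatives changed the pseudocount (0.1 or 5 RPKM), the filter, the scaling, the replicate block, the genes with multiply mapped reads and each library in turn. Sequences and identities were computed with Biopython 1.88 under Python 3.11.15 from RefSeq's TAIR10.1; 1 upstream window is not reported here. Per-library values were given for members at least 2-fold changed, the most abundant ones and those with a known role, and from each list up to 4 genes of smallest p and those moving against its majority; further genes are said to be chosen after their values were seen. Members and lists were chosen with earlier results of these data known.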

Additional observations from a re-analysis of the deposited data

How the results depend on the processing

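Of the 36 members that passed, 31 kept their direction and their call in every one of the 14 alternatives in which they were tested, and none changed direction; GSTU17, GSTU26, GSTF4, GSTF10 and GSTF13 lost the call in 5 to 7 of them. Leaving out genes with multiply mapped reads removed GSTU1, GSTU2, GSTF2, GSTF3, GSTF6, GSTF7 and GSTF8. It left 16 tau members higher and 5 lower, and 6 phi members higher and 2 lower. Of those 6 phi members 2 were at least 2-fold higher, GSTF5 and GSTF12, which reached the filter only through glutamate. In this setting 6500 of all genes were higher and 6751 lower. With a mean of at least 5 RPKM required, 1 phi member was lower, also by at least 2-fold. At least 2-fold lower were 0 phi members with a pseudocount of 5 RPKM, which also gave 1041 genes at least 2-fold higher and 591 lower, and 1 with equal totals per library. With equal medians 8 phi members were higher and 2 lower, and of all genes 6289 were higher and 8164 lower. Without each library in turn, 17 to 18 tau members were higher and 4 to 5 lower (12 to 14 and 2 at least 2-fold), and 8 to 11 phi members were higher and 2 lower (6 and 1 to 2 at least 2-fold, 1 without glutamate replicate 2). Of all genes 6409 to 6836 were then higher and 6799 to 7169 lower. Among members that did not pass, the log2 fold change of GSTU7 turned to 0.104 with equal totals and ran from -0.0422 to 0.0337 without each library. That of GSTU13 turned to -0.0449 with equal medians and ran from -0.0447 to 0.0923 without each library, and that of GSTU23 turned to -0.00613 with equal medians and ran from -0.0595 to 0.149 without each library. GSTU16 passed with equal totals (limma, adjusted p = 0.0128). The cause was not tested in any of these cases. The same alternatives, run for 31 named genes of the lists after their values were seen, ended the call of DTX1 and, in 1 case, of PYK10.

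Replicate numbers were not shown to pair the libraries: same-numbered libraries deviated from their group means with correlations of 0.105, 0.0481 and -0.0125 across genes. With the replicate number as a block, 17 tau members were higher and 5 lower, 11 phi members were higher and 2 lower, and of all genes 6929 were higher and 7265 lower; GSTU26 lost its call (limma, adjusted p = 0.0669), and among the named list genes DTX1 did. Depth limits the scarce members: GSTU11, GSTU15, GSTU21, GSTF5 and GSTF12 had at most 41 reads in any ammonium nitrate library. GSTU3 had 137 reads over the ammonium nitrate libraries together, unequally spread.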
